A study of Mus musculus with 4 samples.

Results

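Ccnd2, Rb1 and Top2a are cell cycle genes with clusters in a list of RNA regions that crosslinked to IMP2, the product of Igf2bp2 and a member of the IGF2BP family of RNA-binding proteins. They were taken by their symbols, and their lines reduced to distinct intervals on the genome, which gave 21 of the 1828 clusters and 3 of the 761 genes of the list. The data came from HITS-CLIP, in which ultraviolet light at 254 nm fixes a protein to the RNA it touches before the protein is pulled down and its RNA fragments are sequenced. Whole brain of Swiss Webster mouse embryos at embryonic day 14 was used, with no genetic change or treatment in the labels. Titles of the 4 libraries carry the letter R in 2 cases and M in 2; the protocol lists antibodies against IMP2 raised in mouse and in rabbit, but what the letters mean is not stated. One list of clusters represents all 4 libraries, so no value below has a replicate error, and R and M could not be set against each other.

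D-type cyclins bind the kinases CDK4 and CDK6 in G1, and the active kinases phosphorylate the retinoblastoma protein RB1 and its relatives. Phosphorylated RB1 releases E2F transcription factors, which switch on the genes of DNA replication. Topoisomerase II alpha, encoded by Top2a, is made in cycling cells, where it untangles replicated DNA before mitosis. Cyclin D2 is the D-type cyclin best known from cortical progenitors: in the mouse embryo its mRNA is carried to the basal endfeet of radial glia through an element in its 3' UTR.

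The labelled tissue was set against markers of brain cells. Of all 21900 protein-coding genes, 3.47% had a cluster. Of 12 neuronal markers, 8 had one, among them Dcx and Map2. Of 11 markers of neural progenitors only Vim did, with a single cluster of height 27, while Sox2, Pax6, Nes and Hes5 were not listed, and the list itself does not place the Ccnd2, Rb1 or Top2a transcripts in progenitors. Erythroid markers had 3 of 8 listed, endothelial and pericyte markers 1 of 8, meningeal and mesenchymal markers 2 of 6 and microglial markers 0 of 6, and the part of such cells in the clusters below was not tested. These counts are a description of short lists. A cluster is a run of overlapping tags, and its height is the authors' score for it, read here as the greatest number of tags that overlap. The median height in the list was 30, the lowest 18 and the highest 107. A tall cluster can come from an abundant transcript or from frequent contact with IMP2; with no RNA-seq or input library analysed here, these cannot be told apart, nor can more cells with the transcript and more transcript per cell.

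All 21 clusters lay wholly within 3' UTRs. In most listed genes, too, every cluster lay in a 3' UTR by its midpoint, so this does not set the members apart. Each gene was represented by 1 RefSeq transcript with 1 uninterrupted 3' UTR interval, and no cluster was shared with another gene. Ccnd2 held 17 of the clusters, Rb1 held 3 and Top2a held 1. All 3 genes read from the minus strand, and positions below count in bases from the stop codon towards the 3' end, with genome coordinates on mm9.

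Ccnd2 had clusters spread along most of its long 3' UTR, though they covered less of it than they left free. The interval is 4626 bases long, on chromosome 6 at 127075727 to 127080352 in transcript NM_009829. The first cluster begins at base 709 and the last ends 73 bases before its end, so the clusters span 83.1% of it. They cover 1814 bases, or 39.2%. With the 3' UTR divided into 10 equal parts of 463 bases, 9 of the parts held the midpoint of at least 1 cluster. The part next to the stop codon was the empty one, and the 708 bases free of clusters there were the longest free stretch in the 3' UTR. The mean midpoint lay 58.8% of the way to the 3' end.

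The stop-codon side of Ccnd2 carried 4 clusters that lay apart from each other and were all lower than the 5 tallest of the gene. The first of them, at bases 709 to 779, was the tallest of these with a height of 43. Those that followed had heights of 31 at bases 1083 to 1138, 25 at bases 1283 to 1316 and 18 at bases 1399 to 1453. A height of 18 is the lowest in the list, so the last of these clusters lies at its floor.

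The middle of the Ccnd2 3' UTR held its tallest clusters. Every one of the 5 clusters with a height of 50 or more lay between bases 1717 and 3392, a stretch that makes up 36.2% of the 3' UTR; the limit of 50 was set after the heights were seen. The stretch opens with a cluster of height 58 at bases 1717 to 1788, on chromosome 6 at 127078565 to 127078636. The authors' fold of the height, a ratio to a level that the file header does not define, was 11.3 there and was the highest of any Ccnd2 cluster. The tallest cluster began 41 bases further on. It had a height of 77 and a fold of 10.2 over bases 1830 to 2148, on chromosome 6 at 127078205 to 127078523. A cluster of height 35 at bases 2205 to 2275 separated it from the widest of the gene, which ran for 381 bases, from 2304 to 2684, with a height of 55. Only 7 clusters of the 1828 were wider than this one, and 14 were wider than the tallest cluster with its 319 bases.

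The same stretch ended in a tight group of clusters. After a cluster at the floor of the list, with a height of 18 at bases 2794 to 2826, came heights of 68 at bases 2930 to 3092, 39 at bases 3097 to 3237 and 59 at bases 3243 to 3392. Only 4 and 5 bases lay between these neighbours, so the group forms a nearly continuous covered run of 463 bases. Over the whole stretch between bases 1717 and 3392, 8 clusters covered 79.4% of the bases, against 16.4% covered by 9 clusters in the rest of the 3' UTR. The stretch was chosen by its heights, and tall clusters in this list are also wide, so this difference is a description only.

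Towards the 3' end, none of the 5 Ccnd2 clusters was taller than 38. The longest gap between clusters, 338 bases, came first, followed by heights of 21 at bases 3731 to 3765 and 24 at bases 3992 to 4028. The clusters near the 3' end had heights of 38 at bases 4161 to 4222, 27 at bases 4371 to 4463 and 35 at bases 4513 to 4553. The last of them had a fold of 7.61, the highest outside the middle stretch. The part of the 3' UTR nearest its end thus held 3 clusters, as many as any other of the 10 equal parts.

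**Figure D1:**
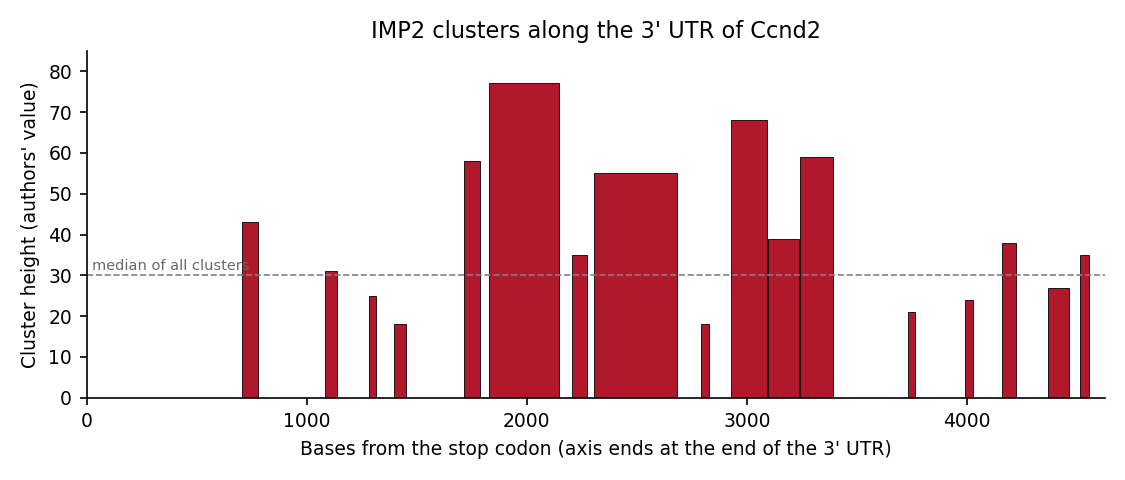
Clusters along the Ccnd2 3' UTR: the x axis gives bases from the stop codon up to the end of the 4626-base 3' UTR, and each bar spans a cluster and rises to its height as the authors scored it. The dashed line marks the median height of 30 over all 1828 clusters; the 5 bars of height 50 or more stand between bases 1717 and 3392, and no bar stands in the first 708 bases.

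Across its 17 clusters, Ccnd2 had a lowest height of 18, a median of 35 and a highest of 77. Of these, 11 (64.7%) were taller than the median of the list, against 46.9% of all 1828 clusters. In the fold of the height Ccnd2 did not stand higher: its folds had a lowest value of 2.22, a median of 5.21 and a highest of 11.3, and 8 of 17 (47.1%) lay above the list's median fold of 5.40, against 49.9% of all clusters. Height divided by fold, the level that the authors' ratio implies, had a median of 7.37 for Ccnd2 clusters (4.40 to 8.72) against 5.96 for all clusters. Taller clusters of Ccnd2 were also wider, with a Spearman correlation of 0.85 across the 17 clusters, against 0.53 across all 1828. Both quantities come from the same overlapping tags, and clusters of 1 transcript are not independent, so no test was made. Height had little relation to the distance from the stop codon (Spearman correlation -0.08 across the same clusters), since the tallest lay in the middle.

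The gaps between neighbouring Ccnd2 clusters varied widely. They had a median of 106 bases and reached from 4 to 338 bases, and 5 of the 16 gaps were of at most 50 bases. Joining clusters across those 5 gaps left 12 separate runs. The 3 longest runs all lay in the middle stretch, with 432 bases for the run that holds the tallest cluster, 480 bases for the next and 463 bases for the last; the stretch also held the isolated cluster of 33 bases at the floor of the list.

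Rb1, whose product holds E2F factors in check until cyclin D kinases phosphorylate it, had 3 clusters in the middle of its 3' UTR. That 3' UTR is 1709 bases long, on chromosome 14 at 73595309 to 73597017 in transcript NM_009029. The cluster nearest the stop codon was the tallest, with a height of 49 and a fold of 9.66 at bases 605 to 665 (chromosome 14, 73596353 to 73596413). The others had a height of 26 and a fold of 5.64 at bases 750 to 796, and a height of 23 and a fold of 6.89 at bases 1067 to 1095. Only the first was taller than the median of the list, while all 3 had folds above the median fold. The clusters were 61, 47 and 29 bases wide, against a median width of 53 in the list, and covered 8.02% of the 3' UTR. No cluster lay in the 604 bases after the stop codon or the 614 bases before the 3' end.

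Top2a had 1 cluster, close to the stop codon. It had a height of 29 and a fold of 5.08, just under the medians of the list for both (30 and 5.40). It covered bases 30 to 84 of a 3' UTR of 467 bases, or 11.8% of it, on chromosome 11 at 98854644 to 98854698 in transcript NM_011623. Its position differs from those of the Ccnd2 and Rb1 clusters, which leave at least the first 604 bases after the stop codon free, a length that the whole Top2a 3' UTR does not reach.

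**Figure D2:**
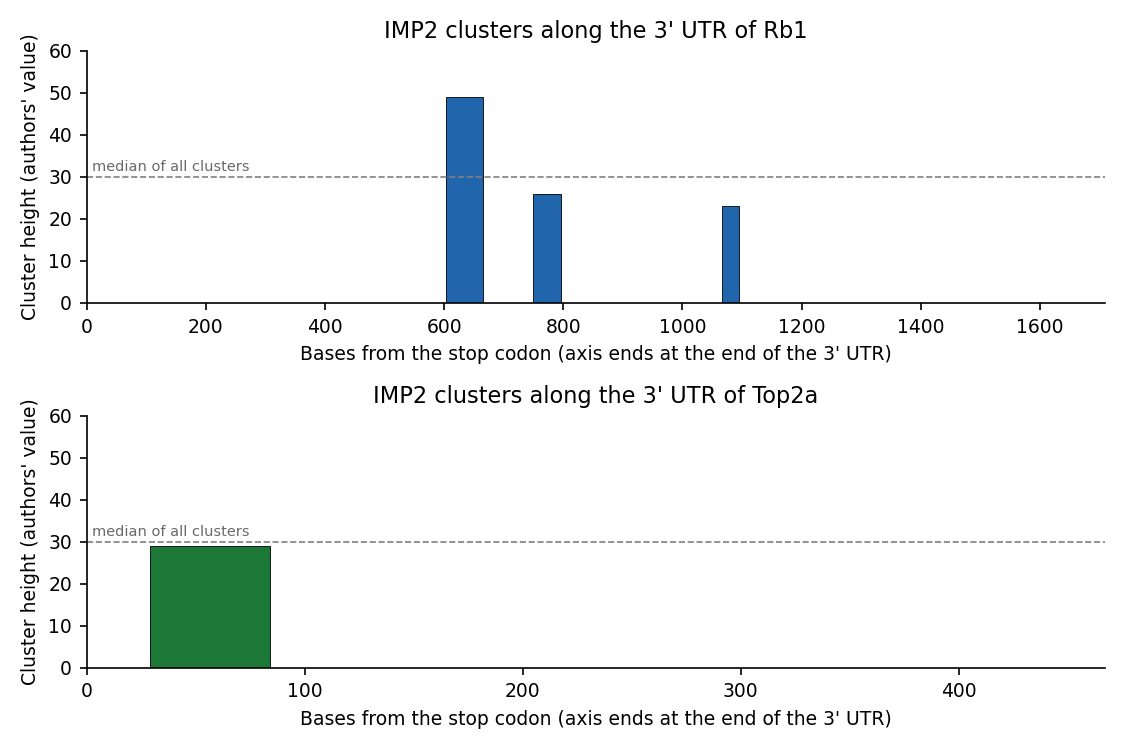
Clusters along the 3' UTRs of Rb1 (upper panel) and Top2a (lower panel), with bases from the stop codon on the x axis, each axis ending with its 3' UTR at 1709 and 467 bases, and the authors' cluster height on the y axis. The Rb1 cluster of height 49 is the only one above the dashed line at the list's median of 30; the Top2a cluster of height 29 lies at bases 30 to 84.

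Ccnd2 ranked above Rb1, and Rb1 above Top2a, by the number of clusters, the greatest height and the greatest fold. Only 4 of the 761 genes had more clusters than Ccnd2, and 17 had a taller one. Rb1 had as many clusters as 73 other genes, and 102 genes had a taller one. Top2a was one of 419 genes with a single cluster, and 440 genes had a taller one. By fold, 55 genes stood above Ccnd2, 103 above Rb1 and 552 above Top2a.

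The number of Ccnd2 clusters was high for the length of its 3' UTR. Ccnd2 had 17, while among the 105 other listed genes whose 3' UTR was within 20% of its length (3720 to 5510 bases) the median was 1 cluster and the upper quartile 3. Of these, 104 had fewer clusters than Ccnd2; the exception was Map1b, encoding microtubule-associated protein 1B, with 18. Map1b was also the single one of them with a larger covered share. Clusters covered 39.2% of the Ccnd2 3' UTR, against a median of 1.62% for these genes. These are ranks of 1 gene among others and carry no test.

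Rb1 and Top2a lay closer to other genes with 3' UTRs of their size. Of 135 other listed genes with a 3' UTR of 1378 to 2046 bases, 15 had more than the 3 clusters of Rb1, 14 had as many and 106 had fewer. Their median was 1 cluster and the most was 10, at Cd24a, which encodes a surface glycoprotein of immature neurons. The height of 49 at Rb1 was exceeded by 15 of the 135, against a median highest cluster of 32. Of 29 other listed genes with a 3' UTR of 375 to 560 bases, 21 had a single cluster like Top2a and 8 had 2. The height of 29 at Top2a lay below the median of 35 for the highest clusters of these 29 genes.

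**Figure D3:**
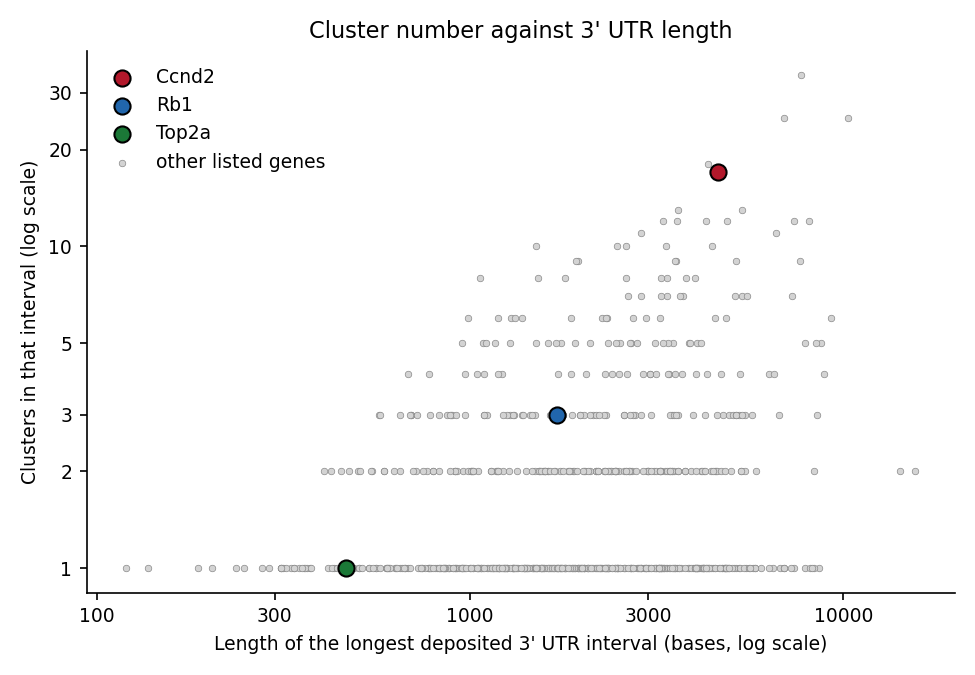
Number of clusters in the longest deposited 3' UTR interval of each listed gene (y axis, log scale) against the length of that interval in bases (x axis, log scale), with Ccnd2, Rb1 and Top2a as large points and the other genes in grey. Ccnd2, with 17 clusters in 4626 bases, lies at the upper edge, next to Map1b with 18; Rb1 with 3 and Top2a with 1 lie within the range of genes of like length.

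Set beside the transcripts with many clusters, Ccnd2 was broadly but not the most densely covered. Of 34 genes with at least 8 clusters in the 3' UTR, Ccnd2 included, 4 had more clusters. Ccnd2 had 3.67 clusters per 1000 bases of 3' UTR, against a median of 3.02 for the 34, and 11 were denser. Its covered share of 39.2% compared with a median of 23.8%, and 11 had a larger one. Clusters of only 2 of these genes reached more of the 10 equal parts of the 3' UTR than the 9 of Ccnd2, and the median was 7. The longest stretch without a cluster took 15.3% of the Ccnd2 3' UTR, and it took a larger share in 25 of the 34 genes (median 20.4%). The median height of its clusters, 35, equalled the median of the 34 genes.

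The genes most like Ccnd2 in the number of clusters and the height of the tallest were Xpr1, Ncam1, Marcks, Map2 and Tcf4. Likeness was the sum of the absolute log2 ratios of these 2 values, over the 761 genes of the list, and was smallest for Xpr1 (0.52), a phosphate exporter gene with 13 clusters and a highest of 70. Ncam1, which encodes the neural cell adhesion molecule, followed at 0.58 with 12 clusters and a highest of 73. Marcks, which encodes an actin-linked membrane protein, came next at 0.67 with 11 clusters and a highest of 79. Map2, encoding a dendritic microtubule protein, and Tcf4, encoding an E-protein transcription factor, tied at 0.77, each with 12 clusters and a highest of 64. None of these 5 genes is on the cell cycle lists. In each all clusters lay in the 3' UTR, as in Ccnd2 and in most listed genes.

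**Figure D4:**
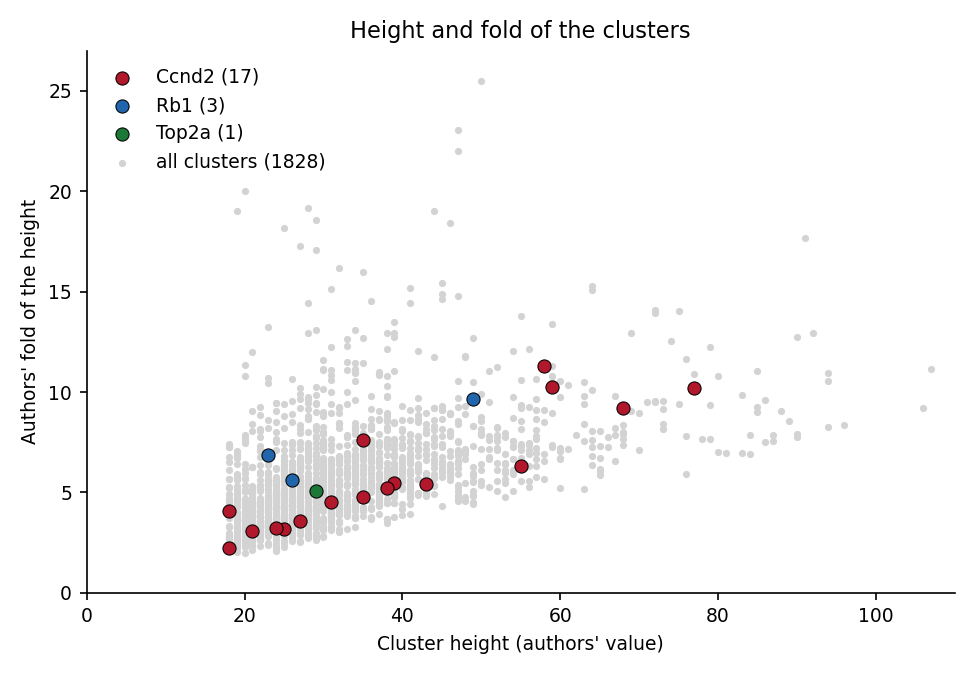
The authors' fold of the height (y axis) against cluster height (x axis) for the 17 Ccnd2, 3 Rb1 and 1 Top2a clusters, over all 1828 clusters in grey. Ccnd2 runs from the floor of the list, at a height of 18, to 77; the tallest cluster of Rb1, at a height of 49, has a fold of 9.66, and the Top2a point lies at 29 and 5.08.

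Neither of the other D-type cyclins occurred in the list. Ccnd1 and Ccnd3, which bind the same kinases as Ccnd2, were searched under 7 and 6 symbols and synonyms and 2 and 6 transcript accessions, and no line carried any of them. The list ends at a height of 18 and a fold of 2, so a lower cluster would not appear. Ccnd2 was thus the 1 listed gene of 3 D-type cyclins. Neither Rbl1 nor Rbl2, which encode the p107 and p130 relatives of RB1, was listed beside Rb1. Among the topoisomerases, Top2b, which encodes the type II enzyme that persists in neurons after division, had 1 cluster. The Top2a cluster, with a height of 29 and a fold of 5.08, was lower than that of Top2b, with 40 and 5.56. The Top2b cluster lay at bases 189 to 238 of a 3' UTR of 321 bases, on chromosome 14 at 17263169 to 17263218. Top1, Top3a and Top3b were not listed.

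With Ccnd2, Rb1 and Top2a counted, cell cycle genes were listed at about the share of all genes. Leaving out these 3 listed genes lowers the share by construction, so the drop is not a result. Of 137 cell cycle genes in 15 lists by role, 5 had a cluster (3.65%, exact Clopper-Pearson 95% interval 1.20 to 8.31, for counting error only), against 3.47% of all 21900 protein-coding genes. Ccnd2, Rb1 and Top2a were chosen because they are listed; of the other 134 genes 2 had a cluster (1.49%, 0.181 to 5.29, an interval that includes the share of all genes), namely Top2b and Anapc1. Anapc1 encodes a scaffold subunit of the anaphase-promoting complex, which marks cyclins for destruction. It had a single cluster of height 23 and fold 4.12 at bases 1818 to 1854 of a 3' UTR of 2865 bases, on chromosome 2 at 128436830 to 128436866, and the other 12 genes of its list had none.

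No cluster was listed for the kinase partners of cyclin D2 or for the E2F factors that RB1 binds. With 3.47% of all protein-coding genes listed, a count of 0 is unremarkable in any single list of 4 to 22 genes. That share is taken over all genes, whether or not they are expressed in this tissue, which was not measured here. Whether these roles were avoided was not tested. None of 5 cell cycle kinase genes was listed, Cdk4 and Cdk6 included, and none of the 7 genes of CDK inhibitors such as Cdkn1b and Cdkn1c, which hold cyclin-kinase complexes in check. The same was so for 7 other cell cycle cyclins, 10 E2F and DP factors, and 5 CDC25 phosphatases and Wee kinases. Of the replication genes, 0 of 22 for licensing and initiation and 0 of 16 of the fork had a cluster. In mitosis, 0 of 13 condensin and cohesin genes, 0 of 8 kinase genes and 0 of 16 genes of kinetochore, checkpoint and passenger proteins were listed. The general proliferation markers had 0 of 4, Mki67 among them. These counts hold for the lists used, which leave out some related genes. Examples outside them are Ccni and Cdk17, each with 1 cluster, with heights of 33 and 45, and the cohesin-linked Pds5b, with 1 of height 31. They are not a full count of such genes. At least 2 clusters were held by Ccnd2, Rb1 and 0 of the 134 genes not chosen for being listed, against 1.56% of all protein-coding genes. A cluster taller than the median height was held by Ccnd2, Rb1 and 1 of the 134, Top2b, against 1.87%.

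**Figure D5:**
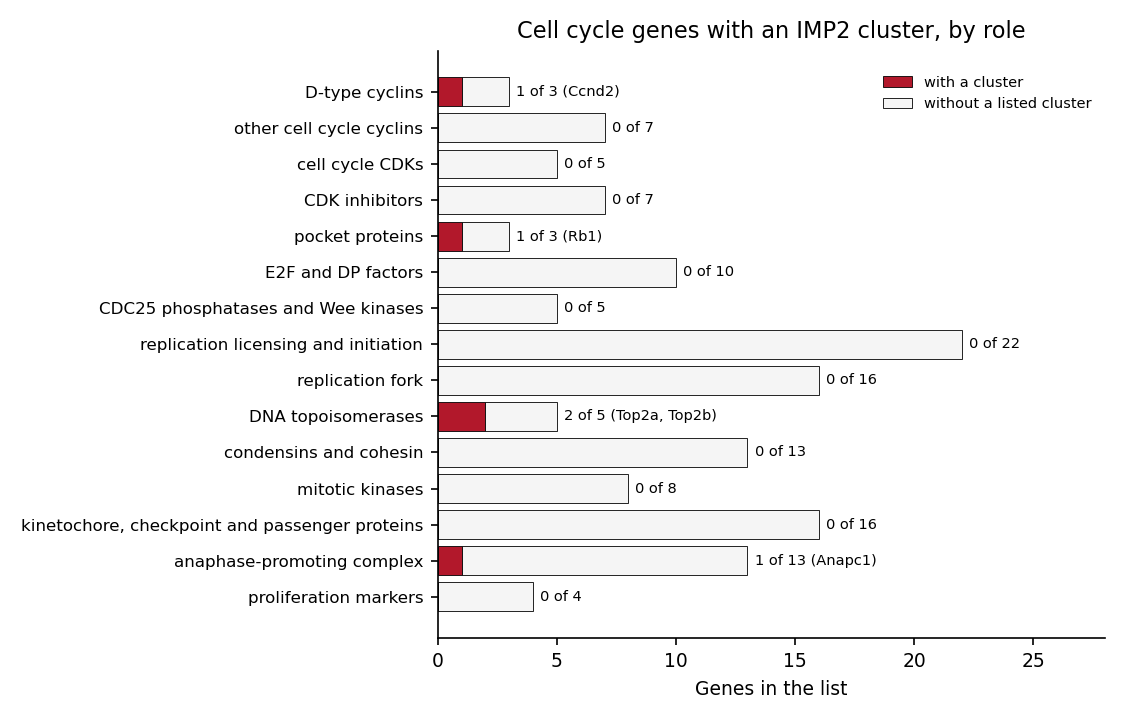
Cell cycle genes by role: the x axis counts genes, the red part of each bar those with at least 1 IMP2 cluster and the pale part those without one in the list, and the text gives the counts and the genes. Only the D-type cyclins (1 of 3), pocket proteins (1 of 3), DNA topoisomerases (2 of 5) and the anaphase-promoting complex (1 of 13) have a red part.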

How the data were processed

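RNA crosslinked to IMP2 was sequenced from 4 libraries of embryonic mouse brain, cut by benzonase to fragments of about 40 nt per the labels' protocols. The submitters' processing notes name Bowtie, FastQC and mm9; no source used here gives the method and cutoffs of cluster calling, or any pooling. Height, as deposited, is a signal, the pileup of tags, and per the file headers the other score is a fold (a ratio) of that height. Library depths are unknown. The 2865 deposited lines were reduced to distinct clusters with Python 3.11.15, pandas 2.3.3 and SciPy 1.17.1, and starts made 1-based. Of 1099 transcripts, 1088 were named by accession and 11 by symbol or synonym in RefSeq's GRCm38.p6 table, from which no coordinate was used. Regions were assigned by cluster midpoint, and the interval functions were tested on simulated data. The members, gene lists and length windows were chosen with earlier results of these data known. The naming rule took the members, their families, every gene of the cell cycle lists with a cluster and the 4 genes (5 with a tie) most like Ccnd2. Cd24a, Map1b, Ccni, Cdk17, Pds5b and the markers were named beside it after their values were seen. No test was made: no column holds a single library.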

Additional observations from a re-analysis of the deposited data

How the results depend on the processing

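The counts of clusters depended on the height and fold required. Of the 17 Ccnd2 clusters, 11 were taller than the median height and 8 had a fold above the median fold. Of the 3 Rb1 clusters 1 was taller, while all 3 had a fold above the median fold. Of the Top2a cluster 0 remained under either requirement. Joining clusters at most 50 bases apart left 12 at Ccnd2, and joining only those that overlap or touch changed none of the 3 genes. All 17 Ccnd2 clusters were in the 3' UTR by any overlap and by whole inclusion too. Their mean position, 58.8% by midpoints, was 57.7% by the edge nearer the stop codon, 59.9% by the edge nearer the 3' end and 56.1% with taller clusters alone, which covered 33.0% of the 3' UTR. By fold in place of height, Ccnd2 ranked 56 rather than 18 among the listed genes. The 5 cell cycle genes became 2 with at least 2 clusters and 3 with a taller cluster. The shifts in counts, mean position and covered share come with fewer clusters or another point of measure. The change of rank comes with another score, the fold. Each gene had a single 3' UTR interval, so a shorter one could not be tried. Leaving out a library was not possible, and depth per library is unknown. No paired analysis was possible because no column of the list carries a library or replicate number.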
